A study of Mus musculus with 18 samples.

Results

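Levels of 9 genes for lipoprotein proteins and fatty acid binding proteins were followed across a series on the conversion of mouse fibroblasts into intestinal cells. The 9 genes are Apob, Mttp, Apoa1, Apoa4, Apoc2, Apoc3, Apoe, Fabp1 and Fabp2. They were chosen by name, and all array probes carrying those names were taken, which gave 15 probes among 41109 usable gene probes and 9 genes among 19701 named genes. RNA was measured on 18 one-colour microarrays, 3 for each of 6 groups, and all material is from the C57BL/6 strain. The groups are mouse embryonic fibroblasts (MEFs), hepatocyte-like cells induced from MEFs (iHep cells), and 4 kinds of organoid culture. Stem cells of an intestinal type, also induced, gave budding organoids (iISC organoids), as did crypts of adult intestine (crypt organoids). Spherical together with budding organoids came either from fetal-type progenitors that had been induced (iFIPC organoids) or from the fetal intestine itself (FI organoids). The iHep titles carry the differing codes 4α1, 4α2 and 4α3, which the labels do not explain, so the 3 iHep arrays may be different conversions. They are called iHep 1, 2 and 3 in that order.

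Enterocytes of the small intestine and hepatocytes both export fat in lipoprotein particles built on apolipoprotein B. Apob is the structural protein of the particle, and microsomal triglyceride transfer protein (Mttp) loads lipid onto it as it is made. The smaller apolipoproteins sit on the particle surface: Apoa1 is the main protein of high-density lipoprotein, Apoa4 is carried on chylomicrons from the gut, Apoc2 activates lipoprotein lipase, Apoc3 slows the breakdown and uptake of the particles, and Apoe is a ligand for their uptake by receptors. The fatty acid binding proteins Fabp1 (the liver type) and Fabp2 (the intestinal type) carry fatty acids inside the cell. Enterocytes hold both, and hepatocytes hold Fabp1.

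Promoter sequence is shown for 4 members that went different ways in the iHep cells: Apoa1 and Apoc2 were high there, while Mttp and Fabp1 were far below the crypt organoids. The windows lie upstream of the RefSeq transcription start on assembly GRCm38.p6, written 5′ to 3′ on the gene's strand and ending at the base before the start: chr6:71199629-71199878 (plus strand) for Fabp1, chr7:19677942-19678091 (minus strand) for Apoc2, chr9:46228480-46228629 (plus strand) for Apoa1 and chr3:138143419-138143568 (minus strand) for Mttp. Capitals mark hits to any of 5 short motifs searched on both strands over 250 bases. They were the HNF4 motif CAAAGTCCA, the hexamer AGGTCA bound by many nuclear receptors, and the motif TTTATG of caudal factors. The others were the motif of the Gata factors, AGATAA, and that of forkhead factors, TGTTTAC.
Fabp1: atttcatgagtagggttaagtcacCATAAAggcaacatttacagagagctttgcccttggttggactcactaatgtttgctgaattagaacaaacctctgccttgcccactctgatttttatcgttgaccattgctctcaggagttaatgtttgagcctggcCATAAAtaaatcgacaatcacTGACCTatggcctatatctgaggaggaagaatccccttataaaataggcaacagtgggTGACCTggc
Apoc2: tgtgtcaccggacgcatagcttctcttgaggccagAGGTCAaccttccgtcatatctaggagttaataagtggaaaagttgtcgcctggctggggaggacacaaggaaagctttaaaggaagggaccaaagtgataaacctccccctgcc
Apoa1: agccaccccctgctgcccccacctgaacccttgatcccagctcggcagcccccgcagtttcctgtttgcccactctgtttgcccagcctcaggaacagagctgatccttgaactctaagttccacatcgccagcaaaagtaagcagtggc
Mttp: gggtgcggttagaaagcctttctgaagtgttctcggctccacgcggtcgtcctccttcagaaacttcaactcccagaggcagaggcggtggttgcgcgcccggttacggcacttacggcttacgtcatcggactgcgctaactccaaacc

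The Fabp1 window held 4 hits: the caudal motif 226 and 88 bases before the start and the nuclear receptor hexamer at 67 and 9 bases. Apoc2 held the hexamer 115 bases before its start. Of the other members in the table, Apoa1, Apoa4, Apob, Apoe (at any of its 3 listed starts), Mttp and Fabp2 held none of the 5 motifs spelled this way. No hit overlapped another. Over all 32851 promoters of this length, 14% held the hexamer, 10.8% the caudal motif, 9.99% the Gata motif, 3.17% the forkhead motif and 0.384% the HNF4 motif. The hits describe the letters of these windows only, and Apoc3 was not matched in the table.

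All levels below are on the log2 scale, counted from the array's own 75th percentile over gene probes, which is 0. Levels of different probes depend on the probe as well as on the RNA, and only levels of the same gene are compared. The scanner software marks each probe as well above background or not. A gene passed the test between groups when limma's moderated test gave an adjusted p under 0.05 (Benjamini-Hochberg, over all genes tested) and a log2 change of at least 1. Where the dimmer group was not well above background on any array, its level is only a bound and the change is given as "at least N-fold". Errors beside changes are standard errors from the fit, and errors beside means are SD. In these bulk cultures, fewer cells of a type and less RNA per cell cannot be told apart.

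Marker genes were read first, as a check of the labels. All 11 fibroblast markers were above background in MEFs and in iHep cells, but their summed linear level was 1210 to 1230 in MEFs and 112 to 247 in iHep cells, 2.76 to 12.2 in iFIPC organoids and at most 1.76 elsewhere. The sum of 10 hepatocyte markers was 727, 1360 and 281 in iHep 1, 2 and 3 and at most 15.5 in any other array. Albumin was at -0.2 in iHep 3 against 6.46 and 7.92 in iHep 1 and 2. All 8 enterocyte markers were above background in the 12 organoid arrays, with sums of 130 to 466. In iHep cells 4 to 6 of the 8 were, with sums of 14.7, 29.5 and 77.9 in iHep 1, 2 and 3, against 2.1 to 3.22 in MEFs. Of 4 goblet cell markers, 2 to 3 were above background in iHep cells. Their sum was 222, 116 and 515 there, against 69.6 to 252 in organoids, so iHep cells did not carry hepatocyte markers alone. MEF arrays 2 and 3 differed from each other by a spread of only 0.212 (log2) over probes, against 0.288 to 0.833 in the other pairs within groups, and were counted as 1 sample. The pair at 0.288 was crypt 2 and 3, both on slide 5, and the next closest pair was at 0.495. Crypt 2 and 3 were still counted as 2 samples, so the spread of crypt arrays may be understated. The organoid arrays were scanned and extracted with a scanner model and software version other than those of the MEF and iHep arrays, so for each difference between an organoid group and MEFs or iHep cells the cell type and the array set cannot be told apart. The labels do not say whether the arrays of a group are separate cultures, so p-values measure only the spread between these arrays.

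**Figure D1:**
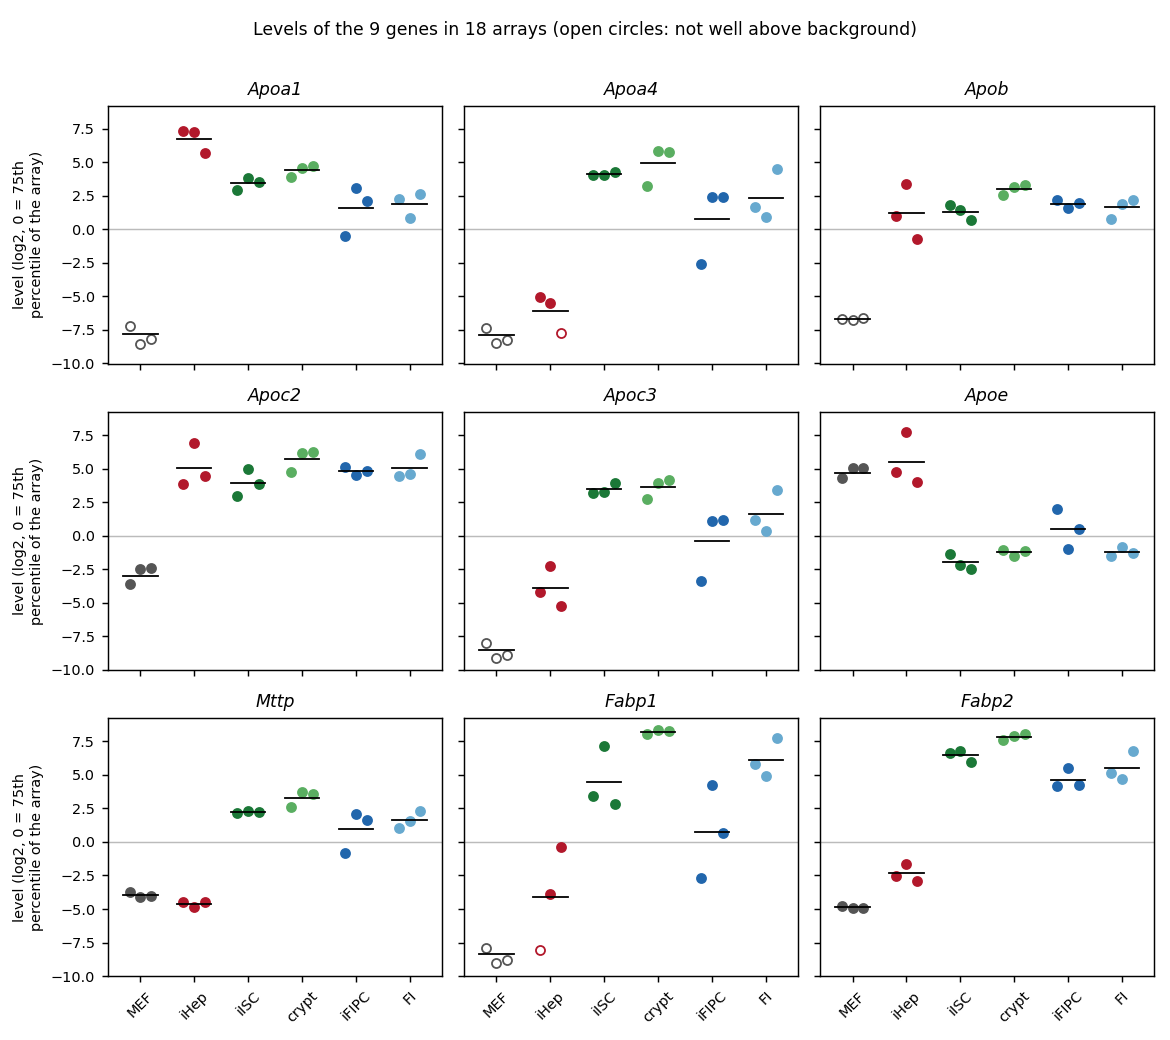
Level of each of the 9 genes (log2, 0 at the 75th percentile of the array) in the 18 arrays, by group, with a line at the group mean (MEF arrays 2 and 3 counted as 1 sample) and open circles where the probe was not well above background. Apoe is high in MEF and iHep arrays and low in the organoids, Mttp, Apoa4 and Fabp2 are low in MEF and iHep arrays and high in the organoids, and Apoa1 is highest in iHep arrays.

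Apob, the structural protein of the particle, and Mttp, which loads lipid onto it, came apart in the iHep cells. Apob, read by its brightest probe (mm9 chr12:8023194-8023253, plus strand), was at -6.7, -6.73 and -6.64 in MEFs, not above background on any array. It stood at 0.96, 3.4 and -0.74 in iHep 1, 2 and 3, and its rise over MEFs was at least 169-fold (adjusted p = 8.49e-06). The 3 iHep arrays all lay above the MEFs, with iHep 2 the highest. In the organoids Apob was at 1.79, 1.47 and 0.68 (iISC), 2.55, 3.19 and 3.34 (crypt), 2.16, 1.59 and 1.96 (iFIPC), and 0.8, 1.88 and 2.21 (FI). Crypt organoids were highest, with no overlap with any other organoid group, and the mean of iHep cells (1.21 ± 2.08, n = 3) lay beside that of iISC organoids (1.31 ± 0.57, n = 3). The difference between those 2 groups was 0.11 ± 0.76 (adjusted p = 0.91).

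Mttp (mm9 chr3:137757948-137758007, minus strand) was at -3.75, -4.14 and -4.05 in MEFs and at -4.46, -4.86 and -4.49 in iHep cells. The iHep arrays lay just below the MEFs without overlap, by -0.68 ± 0.66, which did not pass the test (adjusted p = 0.424). In the organoids it was at 2.16, 2.29 and 2.23 (iISC), 2.62, 3.72 and 3.55 (crypt), -0.84, 2.09 and 1.63 (iFIPC), and 1.07, 1.53 and 2.34 (FI). Every organoid array lay above every MEF and iHep array, and iFIPC 1 was the lowest of the 12. Crypt organoids exceeded iHep cells by 7.9 ± 0.59 for Mttp (adjusted p = 1.18e-07) and by 1.82 ± 0.76 for Apob (adjusted p = 0.0475). The Apob difference from iHep cells is not stable: without iHep 3 it was 0.85 (adjusted p = 0.239), it missed the threshold without any of 4 other arrays (iHep 1 or any crypt array, adjusted p = 0.0537 to 0.117), and the crypt and iHep arrays overlapped.

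Apob was measured by 5 probes along its transcript, starting at bases 3189, 6486, 10517, 13397 and 13457. The probes at bases 13397 and 13457 lie end to end, so they come close to a single reading. Those at bases 3189 and 10517 were the dimmest (mean levels -3.54 and -4.59). The filter left these dim probes out of the test between iHep cells and MEFs. Compared with iHep cells, iISC organoids differed little on 4 of the 5 probes (-0.03 ± 0.75 to 0.92 ± 0.68, none passing), but the probe at base 6486 was higher by 2.89 ± 0.79 (adjusted p over all probes 0.00581). That probe read -2.8, -0.21 and -4.42 in iHep cells against -0.64, 0.73 and 1.15 in iISC organoids. It was also the only probe of the 5 that did not pass between iISC and crypt organoids, at -0.65 ± 0.45, where the other 4 ran from -1.83 ± 0.38 to -1.38 ± 0.28. All 5 probes were higher in crypt than in FI organoids, by 1.25 to 1.4 log2 units, and 4 passed. The probe at base 6486 is named Apob in the 12 organoid files, while the MEF and iHep files list it under a transcript identifier, and it was matched by its probe ID.

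**Figure D2:**
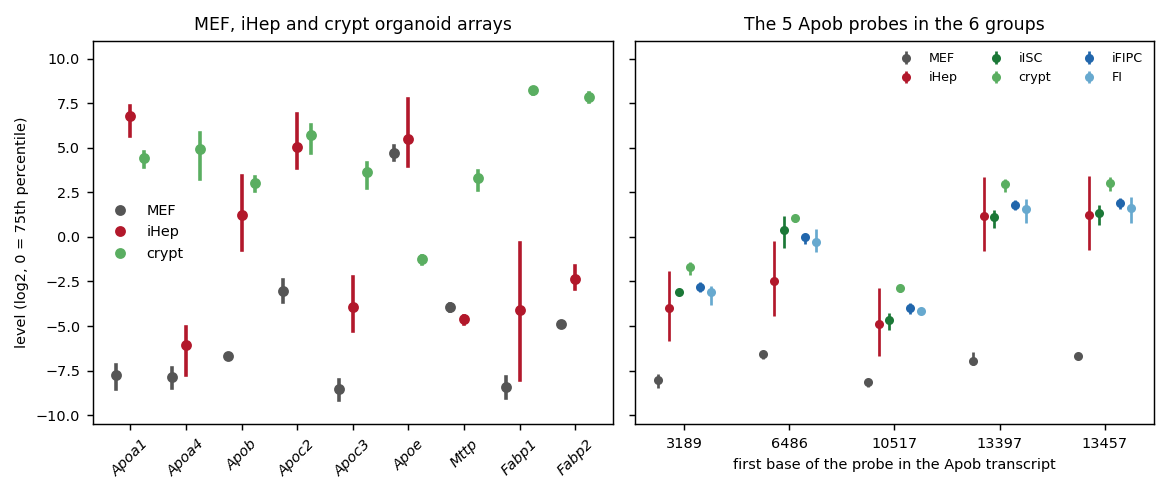
Left, levels (log2, points at group means, bars from the lowest to the highest array) of the 9 genes in MEF, iHep and crypt organoid arrays, to be compared within a gene only. Right, the 5 Apob probes in the 6 groups by their first base in the transcript: the probe at base 6486 has the iHep mean below all 4 organoid means, with iHep and iISC arrays overlapping, while at bases 13397 and 13457 iHep and iISC means nearly coincide.

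Apoa1, Apoc3 and Apoa4 lie side by side in the genome, with their probes inside 12.5 kb of chromosome 9 (mm9 chr9:46037921-46050404). They nonetheless followed different courses in iHep cells. Apoa1 (probe chr9:46037921-46037980, plus strand) was at -7.17, -8.51 and -8.21 in MEFs, below background, and at 7.35, 7.26 and 5.67 in iHep cells, a rise of at least 8020-fold (adjusted p = 4.43e-08). It was the member with the largest bound between iHep cells and MEFs, and iHep arrays were the highest of all 18. The organoids were at 2.93, 3.79 and 3.54 (iISC), 3.91, 4.6 and 4.74 (crypt), -0.47, 3.05 and 2.13 (iFIPC), and 2.25, 0.87 and 2.65 (FI). Each organoid group was below the iHep cells for Apoa1, from -2.34 ± 0.78 in crypt organoids (adjusted p = 0.0172) to -5.19 ± 0.78 in iFIPC organoids (adjusted p = 0.000101). The crypt call was lost without crypt 1, iHep 1 or iHep 2, at -2.05 to -2.09 (adjusted p = 0.0569 to 0.0621).

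Apoa4 (probe chr9:46049661-46050404 plus strand, crossing an intron) went the other way. It was at -7.33, -8.46 and -8.27 in MEFs and at -5.07, -5.46 and -7.72 in iHep cells, above background only in iHep 1 and 2, so the filter on dim probes left it out of the test between iHep cells and MEFs. Organoid levels were 4.05, 4.07 and 4.31 (iISC), 3.24, 5.81 and 5.8 (crypt), -2.55, 2.43 and 2.38 (iFIPC), and 1.67, 0.93 and 4.47 (FI). Apoa4 was higher than in iHep cells by 11.04 ± 1.3 in crypt organoids (adjusted p = 7.32e-06) and by 10.23 ± 1.3 in iISC organoids (adjusted p = 1.67e-05). These sizes rest in part on the iHep level at background.

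Apoc3 (probe chr9:46041353-46041412, minus strand) was between its neighbours. It was at -8, -9.13 and -8.9 in MEFs, below background, and at -4.23, -2.24 and -5.28 in iHep cells, a rise of at least 4.91-fold (adjusted p = 0.0107). In the organoids it was at 3.17, 3.27 and 3.95 (iISC), 2.76, 3.94 and 4.16 (crypt), -3.41, 1.07 and 1.14 (iFIPC), and 1.17, 0.36 and 3.37 (FI). The iISC and crypt arrays overlapped and lay 7.38 ± 1.14 and 7.54 ± 1.14 above iHep cells (adjusted p = 9.26e-05 and 6.83e-05), while iFIPC 1 fell within the iHep range. The second Apoc3 probe gave -0.12 ± 1.18 between iISC and crypt organoids, beside -0.16 ± 1.15 for the first in the same fit over probes. Between iHep cells and MEFs the Apoc3 rise did not pass with normexp background correction (1.12, adjusted p = 0.414) or with slide as a term (4.09, adjusted p = 0.0879).

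Apoc2 and Apoe are the other neighbouring pair, with probes 24.8 kb apart at most on chromosome 7, and they parted in the organoids. Apoc2 (mm9 chr7:20257027-20257086, minus strand) was detected in MEFs at -3.64, -2.47 and -2.43, and rose in iHep cells to 3.85, 6.88 and 4.44, by 8.11 ± 0.86 (adjusted p = 7.55e-06). Organoid arrays were at 2.93, 4.98 and 3.85 (iISC), 4.73, 6.18 and 6.27 (crypt), 5.12, 4.51 and 4.82 (iFIPC), and 4.46, 4.61 and 6.06 (FI). The iHep and organoid ranges overlapped in each case, and no Apoc2 difference among these 5 groups passed the test; the largest was iISC below crypt organoids at -1.81 ± 0.6 (adjusted p = 0.12). Apoc2 was the only member for which MEFs differed from all 5 other groups while none of those 5 differed from another by the test.

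Apoe (mm9 chr7:20281732-20281791, minus strand) was the only member higher in MEFs than in every organoid group. It was at 4.29, 5.07 and 5.06 in MEFs and at 4.77, 7.76 and 3.97 in iHep cells, a difference of 0.82 ± 0.95 (adjusted p = 0.505), which becomes -0.3 without iHep 2. Organoid levels were -1.35, -2.16 and -2.46 (iISC), -1.08, -1.54 and -1.11 (crypt), 1.98, -1.02 and 0.47 (iFIPC), and -1.55, -0.84 and -1.31 (FI). All 12 organoid arrays lay below all 6 MEF and iHep arrays. Against MEFs Apoe changed by -6.67 ± 0.95 in iISC organoids (adjusted p = 3.7e-05) and by -4.2 ± 0.95 in iFIPC organoids (adjusted p = 0.00178), with crypt and FI organoids between them.

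Macrophages are a known source of Apoe. All 7 macrophage markers found on the array were above background in MEFs, and they included Adgre1 at -0.62, 0.71 and 0.59 and Tyrobp at 0.25, 0.97 and 0.88. In iHep cells 2 to 4 of the 7 were above background and their summed linear level was 0.306 to 1.78, against 68.4 to 108 in MEFs. The sum was 0.717, 1.78 and 0.306 in iHep 1, 2 and 3, the same order as their Apoe levels. Sums of other lists had that order too, among them hepatocyte (727, 1360 and 281) and fibroblast markers (241, 247 and 112). The enterocyte, goblet cell and adipocyte sums did not. In organoids the sum was 53 to 158, nearly all of it Lyz2, which was at 5.73 to 7.31, while Adgre1 was at -7.98 or lower. The median level of the 7 markers was -6.75 to -4.96 in organoid arrays, against -0.62 to 0.3 in MEFs. In iFIPC 1, the organoid array highest for Apoe, 6 of the 7 markers were above background, against 3 to 5 in the other 11 organoid arrays, and its sum was 148. The sum of fibroblast markers was 4.9, 12.2 and 2.76 in iFIPC arrays 1, 2 and 3. The part of these other cell types in the Apoe levels was not tested.

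Both fatty acid binding proteins were higher in each organoid group than in MEFs and iHep cells. Fabp2 (mm9 chr3:122602276-122602335, plus strand) was at -4.78, -4.93 and -4.95 in MEFs and at -2.51, -1.62 and -2.9 in iHep cells, higher by 2.52 ± 0.56 (adjusted p = 0.00281). The organoids stood at 6.63, 6.79 and 5.99 (iISC), 7.59, 7.88 and 8.06 (crypt), 4.15, 5.48 and 4.28 (iFIPC), and 5.15, 4.67 and 6.75 (FI). Crypt arrays were above all others, iISC arrays above iFIPC arrays, and iFIPC and FI arrays overlapped. Crypt organoids exceeded iHep cells by 10.19 ± 0.5 (adjusted p = 3e-09). The second Fabp2 probe, which starts at base 125 of the transcript, was not above background in MEFs and gave 10.05 ± 0.46 for the same difference. The filter left it out of the test between iHep cells and MEFs, so the rise there rests on the brighter probe. The rise from MEFs to iHep cells was 1.25 with normexp background correction (adjusted p = 0.0659).

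Fabp1 (mm9 chr6:71154906-71154965, plus strand) was far apart within some groups and close within others. It was at -7.88, -9.01 and -8.79 in MEFs, below background, and at -8.05, -3.89 and -0.35 in iHep 1, 2 and 3. Only iHep 2 and 3 were above background, so here too the filter left the gene out of the test between iHep cells and MEFs. The order within iHep arrays was the reverse of that for Apoa1, which was lowest in iHep 3. Organoid levels were 3.4, 7.16 and 2.86 (iISC), 8.03, 8.34 and 8.27 (crypt), -2.7, 4.23 and 0.66 (iFIPC), and 5.79, 4.89 and 7.75 (FI). Crypt arrays (8.22 ± 0.17, n = 3) lay close together and above all others, while the iFIPC arrays were far apart (0.73 ± 3.47, n = 3). All 4 organoid groups were above MEFs, from at least 123-fold in iFIPC organoids (adjusted p = 0.00219) to at least 22000-fold in crypt organoids (adjusted p = 1.28e-05).

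Counted over the 9 genes, each organoid group differed from MEFs in the same members: 8 were higher and Apoe lower. Apoa1, Apoa4, Apob, Apoc3 and Fabp1 were not above background in MEFs and entered these tests only through the organoid arrays. Their direction was thus all but fixed by the filter. Of all tested genes, 48.5% passed for iISC organoids (23.1% higher, 25.5% lower), 50.3% for crypt (24.2% and 26.1%), 43.5% for iFIPC (20.2% and 23.3%) and 47.1% for FI organoids (23.3% and 23.8%). Between iHep cells and MEFs, 5 of the 7 members tested were higher (Apoa1, Apob, Apoc2, Apoc3 and Fabp2) and none lower, with 27.8% of all genes passing (11.9% higher, 15.9% lower). Apoa1, Apob and Apoc3 entered through the iHep arrays alone, so their direction too was all but fixed. The members' median change, which includes them, was 4.59 and that of all genes -0.11. On slide 1, which held MEF 1 and all iHep arrays, Apoa1 was 13.93 higher, Apoc2 8.7, Apob 7.9, Apoc3 4.09 and Fabp2 2.43, with 1 MEF array and hence no spread of that group. With slide as a term 4 of the 5 passed, and Apoc3 did not (adjusted p = 0.0879). Against iHep cells, Apoa4, Apoc3, Mttp, Fabp1 and Fabp2 were higher and Apoa1 and Apoe lower in every organoid group, and Apob was also higher in crypt organoids, among 9 tested. Apoa4 and Fabp1 entered these tests through the organoid arrays only. Of all genes 39.8% passed for iISC (20.5% higher, 19.3% lower), 41.9% for crypt (21.3% and 20.6%), 34.1% for iFIPC (17.5% and 16.6%) and 38.5% for FI organoids (20.9% and 17.6%). The balance depends on the scaling: with the percentile taken over probes above background on all arrays, the share of passing genes that were higher went from 51.4% to 43.9% for iISC, 50.8% to 44.5% for crypt, 51.3% to 45.7% for iFIPC and 54.2% to 48.2% for FI organoids, and the median of all genes for crypt from 0.11 to -0.05. For iFIPC organoids the calls of Apoc3 (3.52 ± 1.15, adjusted p = 0.0178) and Fabp1 (4.82 ± 1.9, adjusted p = 0.0428) were the least certain: Apoc3 missed the threshold without iFIPC 2, iFIPC 3, iHep 1 or iHep 3 (2.75 to 3.36), and Fabp1 without iFIPC 2, iFIPC 3, iHep 1 or iHep 2 (2.85 to 4.93). These comparisons share their MEF or iHep arrays.

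Other genes of fat handling in iHep cells were mixed. Among all genes, 27.8% passed against MEFs (11.9% higher, 15.9% lower). Of 14 tested genes of lipoprotein assembly and secretion, 1 rose over MEFs (Apobec1, the enzyme that edits Apob mRNA, by 2.9 ± 0.43, adjusted p = 0.000134) and 1 fell (Pltp, -1.99 ± 0.72, adjusted p = 0.0392). Of 17 tested genes of triglyceride and cholesteryl ester synthesis, 7 rose and 2 fell. Cideb, a lipid droplet protein active in lipoprotein lipidation, rose by at least 15.4-fold, and Dgat2, which makes triglyceride, by 3.45 ± 0.43 (adjusted p = 3.44e-05), while Mogat2, the monoacylglycerol acyltransferase of the gut, fell by -3.72 ± 0.86 (adjusted p = 0.00347). Of 21 tested regulators, 11 rose and 1 fell. Those that rose included Cdx2, the caudal factor of the intestine (at least 614-fold), and Hnf4a, a nuclear receptor factor shared by liver and gut (at least 51.8-fold). Cideb, Cdx2 and Hnf4a were not above background in MEFs and entered these tests only through the iHep arrays. Their direction was thus all but fixed by the filter, and the counts of rising genes include them.

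Compared with iHep cells, the crypt organoids were higher in 8 of 16 assembly genes and lower in 4, and higher in 11 of 17 synthesis genes and lower in none. Among all genes, 41.9% passed in this comparison (21.3% higher, 20.6% lower). A1cf, the partner of Apobec1, was at least 80.9-fold higher, and Mogat2 was higher by 7.87 ± 0.77 (adjusted p = 1.34e-06). Apobec1 itself was lower by -1.51 ± 0.38 (adjusted p = 0.00352). Npc1l1, the cholesterol uptake protein of the brush border, was at least 722-fold higher, and 9 of 13 genes of fat uptake and activation were higher. A1cf and Npc1l1 were not above background in iHep cells and entered these tests only through the crypt arrays. Their direction too was all but fixed by the filter, and the counts of higher genes include them. Of 29 regulators, 17 were higher and 3 lower, with Creb3l3, a membrane-bound factor that acts on apolipoprotein genes, higher by 10.13 ± 1.21 (adjusted p = 8.49e-06). The median change of the uptake list was 2.08 and of the synthesis list 1.4, beside 0.11 for all genes.

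Among the organoids, the question is how far cultures from induced progenitors match those from tissue, at the adult and at the fetal stage. Between iISC and crypt organoids 1 of the 9 genes passed, with 3.4% of all genes passing (2.09% higher, 1.31% lower): Apob was lower in iISC organoids by -1.72 ± 0.4 (adjusted p = 0.0388), or 3.28 times. All 9 genes had the lower mean in iISC organoids, with a median difference of -1.06, beside -0.01 for all genes. For Apoa1 (-0.99 ± 0.79), Mttp (-1.06 ± 0.66), Fabp2 (-1.37 ± 0.52) and Fabp1 (-3.74 ± 1.63) the arrays did not overlap either, with adjusted p of 0.501, 0.391, 0.162 and 0.218. Full separation of 3 against 3 arrays gives no exact permutation p below 0.1. The lack of overlap, here and in the other comparisons, is a description only. The Apob call was lost without iISC 2, iISC 3, crypt 2 or crypt 3 (-1.79, -1.4, -1.64 and -1.56, adjusted p = 0.0846 to 0.139). iISC and crypt arrays share no slide, and with slide as a term the Apob difference was -1.48 (adjusted p = 0.459). Apoe turned to 1.58 under that setting (adjusted p = 0.477).

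Of the other genes of fat handling, none of the synthesis (17 tested), assembly (15) or receptor and lipase (12) lists passed between iISC and crypt organoids in limma, where 3.4% of all genes passed. At that share, lists of this size hold few or no passing genes. Apoa2, a second high-density lipoprotein protein, was lower in iISC organoids by -2.23 ± 0.31 (adjusted p = 0.00547), and Slc27a2, a fatty acid transporter and acyl-CoA synthetase, by -1.75 ± 0.32 (adjusted p = 0.0159). Ffar4, a receptor for long-chain fatty acids, was higher by 2.06 ± 0.38 (adjusted p = 0.0172). The forkhead factor Foxa1 was the only one of 29 regulators to pass, at -3.53 ± 0.39 (adjusted p = 0.00151).

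Between iFIPC and FI organoids 1 of the 9 passed, with 10.8% of all genes passing (5.73% higher, 5.03% lower). Fabp1 was lower in iFIPC organoids by -5.41 ± 1.64 (adjusted p = 0.0378), and the arrays did not overlap. The other 8 overlapped, and the nearest to the threshold was Apoe, higher by 1.71 ± 0.62 (adjusted p = 0.0677). The Fabp1 call was lost when any array other than iFIPC 2 was left out (-3.7 to -6.04, adjusted p = 0.0694 to 0.103), and without iFIPC 1 it was -3.7. Without iFIPC 1 the differences of Apoa1, Apoa4 and Mttp turned from -0.36, -1.6 and -0.69 to 0.66, 0.05 and 0.21. iFIPC and FI arrays share no slide, and with slide as a term Fabp1 was at -7.45 (adjusted p = 0.205).

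Several relatives of the 9 genes differed between iFIPC and FI organoids, where 10.8% of all genes passed (5.73% higher, 5.03% lower). Of 7 tested genes in the fatty acid and retinol binding family, 4 were higher and none lower in iFIPC organoids, among them Fabp4 by at least 284-fold, Rbp7 by 3.13 ± 0.8 (adjusted p = 0.0204) and Fabp5 by 3 ± 0.54 (adjusted p = 0.00532). Fabp4, the fatty acid binding protein of fat cells and macrophages, was at -1.21, -1.2 and 6.19 in iFIPC arrays 1, 2 and 3, with array 3 far above the other iFIPC arrays, and at -7.44, -6.7 and -7.52 in FI arrays. It was not above background in FI organoids and entered the test only through the iFIPC arrays, so its direction was all but fixed by the filter. Clu, the apolipoprotein also called ApoJ, was higher by 4.26 ± 0.84 (adjusted p = 0.0078), at 7.16, 6.59 and 5.48 against 1.67, 3.19 and 1.57. Of 28 regulators 7 were lower and none higher, among them Foxa1 (-3.83 ± 0.39, adjusted p = 0.000462), Gata4 (-3.38 ± 0.6, adjusted p = 0.0053), Ppara (-2.23 ± 0.48, adjusted p = 0.0108) and Cdx2 (-2.08 ± 0.22, adjusted p = 0.000494). Of 7 fibroblast markers tested 3 were higher in iFIPC organoids and of 4 macrophage markers 2, and their part in it was not tested.

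Stage was compared within tissue-derived and within induced cultures. The adult-type groups are budding organoids and the fetal-type groups spherical with budding ones, so stage and organoid form cannot be told apart. In crypt against FI organoids 2 of the 9 passed, with 9.15% of all genes passing (3.16% higher, 5.99% lower): Fabp2 was higher by 2.32 ± 0.52 (adjusted p = 0.0162) and Apob by 1.4 ± 0.4 (adjusted p = 0.0399). Neither overlapped, nor did Apoa1 (2.49 ± 0.79, adjusted p = 0.0588), Mttp (1.65 ± 0.67, adjusted p = 0.119) or Fabp1 (2.07 ± 1.64, adjusted p = 0.407). Within slide 4, which held crypt 1 and the 3 FI arrays, Fabp2 was 2.06 higher and Apob 0.93, both resting on 1 crypt array. With slide as a term, which pools the spread over all organoid arrays, neither passed (adjusted p = 0.187 and 0.482). The Fabp2 call was lost without crypt 2, crypt 3, FI 1 or FI 2 (1.89 to 2.3), and the Apob call without the same arrays (0.98 to 1.53). Of 15 assembly genes 3 were higher in crypt organoids (Apobec1 by 1.8 ± 0.28, Tm6sf2 by 1.67 ± 0.41, Tm4sf5 by 1.23 ± 0.22), of 17 synthesis genes 3 (Dgat1 by 1.84 ± 0.37, Cideb by 1.54 ± 0.25, Gpat3 by 1.4 ± 0.41), and of 29 regulators 4. Lpl, the lipase that Apoc2 activates, was lower by -3.37 ± 0.66 (adjusted p = 0.00879).

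In iISC against iFIPC organoids, Fabp2 was higher by 1.84 ± 0.52 (adjusted p = 0.044) and Apoe lower by -2.47 ± 0.62 (adjusted p = 0.0291), with 8.05% of all genes passing (3.22% higher, 4.83% lower). Slide 3 held the 3 iISC arrays and iFIPC 2, and there the differences were 0.99 for Fabp2 and -0.97 for Apoe, both resting on 1 iFIPC array. With slide as a term neither passed (adjusted p = 0.528 and 0.488). Apoe was -1.71 without iFIPC 1 (adjusted p = 0.0557), and its call was lost also without iISC 2, iISC 3 or iFIPC 3. The Fabp2 call was lost without any array but iFIPC 2 (1.59 to 2.08). In iISC against FI organoids none of the 9 passed in limma, and 0 had an unadjusted p under 0.05, with 5.52% of all genes passing (2.47% higher, 3.05% lower) and changes from -1.67 ± 1.64 (Fabp1) to 1.83 ± 1.16 (Apoc3); of all genes that passed there 44.8% were higher in iISC organoids, and 54.9% with normexp background correction.

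**Figure D3:**
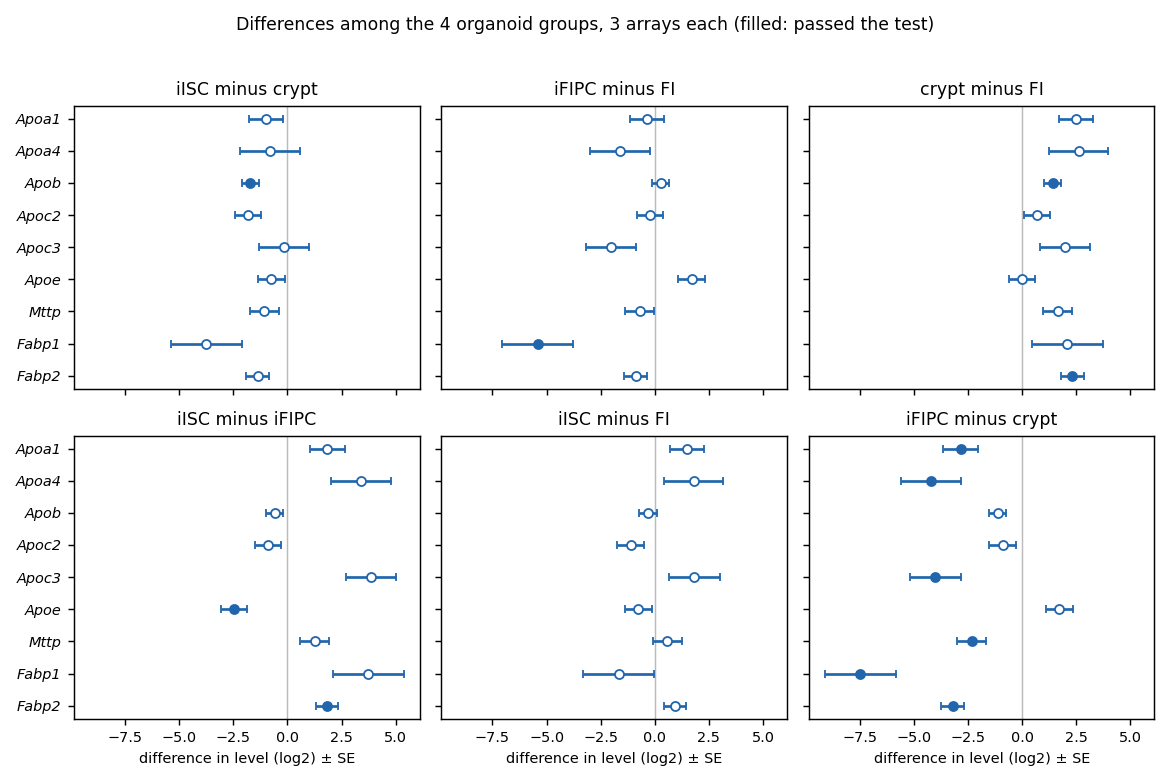
Differences in level (log2, points, with standard errors as bars) of the 9 genes in 6 comparisons of organoid groups, 3 arrays each, with filled points where the test was passed. All 9 means are lower in iISC than in crypt organoids but only Apob passed, and 6 genes passed between iFIPC and crypt organoids, all lower in iFIPC.

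Among organoids the most members passed between iFIPC and crypt cultures, which differ in origin, stage and organoid form. Of the 9 genes 6 were lower in iFIPC organoids and none higher, with 14.8% of all genes passing (9.47% higher, 5.3% lower). Fabp1 was lower by -7.49 ± 1.64 (adjusted p = 0.00851), or 179 times, and Fabp2 by -3.21 ± 0.52 (adjusted p = 0.00197). Apoa4 (-4.2 ± 1.38, adjusted p = 0.048), Apoc3 (-4.02 ± 1.17, adjusted p = 0.0297), Apoa1 (-2.85 ± 0.79, adjusted p = 0.0254) and Mttp (-2.33 ± 0.67, adjusted p = 0.0283) were the other 4. Apob (-1.13 ± 0.4, adjusted p = 0.0616) and Apoe (1.72 ± 0.62, adjusted p = 0.0666) did not overlap between the groups but missed the threshold. Fabp1 and Fabp2 passed under each of the alternative settings and with any array left out, and were -9.33 and -3.76 within slide 5, which held crypt 2 and 3 and iFIPC 1 and 3 (adjusted p = 0.0252 and 0.00437). The other 4 were lost without crypt 2 or crypt 3 (adjusted p = 0.0727 to 0.134), which leaves 2 of the 9 passing, and within slide 5 they were -5.89, -5.18, -3.84 and -3.24 in the order given and did not pass, while Apob (-1.21, adjusted p = 0.0208) and Apoc2 (-1.25, adjusted p = 0.023) did. With slide as a term over all organoid arrays those 4 passed (adjusted p = 0.0167 to 0.0375), as did Fabp1, Fabp2 and Apoe (2.55, adjusted p = 0.0144), which makes 7 of the 9.

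Without iFIPC 1, 5 of the 9 still passed: Fabp1 at -5.77 (adjusted p = 0.022), Fabp2 at -2.96 (adjusted p = 0.00882), Apoc3 at -2.52 (adjusted p = 0.0494), Apoa1 at -1.83 (adjusted p = 0.0401) and Mttp at -1.43 (adjusted p = 0.0345), while Apoa4 was -2.55 (adjusted p = 0.115). That array was the lowest of the 12 organoid arrays for 6 of the 9 genes, all but Apob, Apoc2 and Apoe, and the highest for Apoe. Its enterocyte marker sum was 130, beside 299 and 225 in iFIPC 2 and 3, 335 to 446 in crypt, 393 to 466 in iISC and 163 to 274 in FI arrays. Creb3l3 was at -2.83 there, beside 1.62 and 0.63 in the other iFIPC arrays and 3.68 to 4.86 in crypt arrays. FI 3 showed the reverse within its group, with the highest level of each member but Apoe and the highest enterocyte sum of the FI arrays (274). The part of the share of enterocytes in these differences was not tested.

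**Figure D4:**
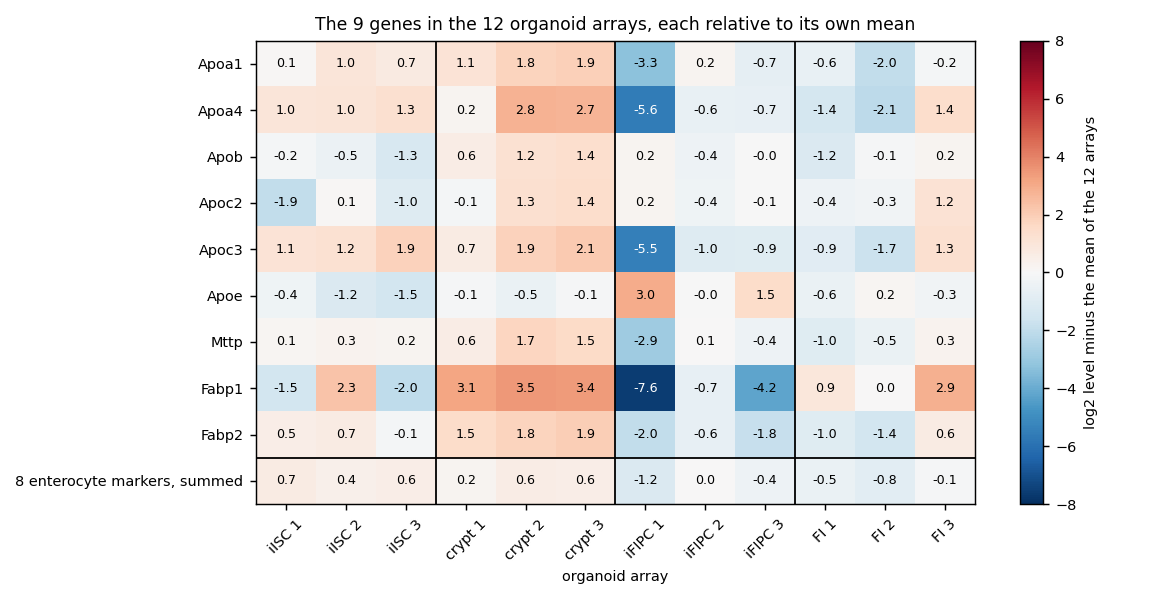
Log2 level of each of the 9 genes in the 12 organoid arrays minus its mean over the 12 (colour and printed value), with the summed linear level of 8 enterocyte markers treated the same way in the bottom row. In iFIPC 1, Fabp1 is at -7.6, Apoa4 at -5.6 and Apoc3 at -5.5 while Apob and Apoc2 are at 0.2 and Apoe at 3.0, and the marker sum is lowest there at -1.2.

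Some genes of the pathway lists were lower in iFIPC than in crypt organoids, where 5.3% of all genes were lower and 9.47% higher. Of 17 synthesis genes 4 were lower and none higher: Gpat3 (-2.88 ± 0.41), Dgat1 (-2.46 ± 0.38), Mogat2 (-1.79 ± 0.45) and Cideb (-1.24 ± 0.25), with adjusted p of 0.000979, 0.00141, 0.016 and 0.0056. Of 15 assembly genes 3 were lower, A1cf by the most (-3.02 ± 0.37, adjusted p = 0.000472). Of 29 regulators 9 were lower and 1 higher (Rora), with Creb3l3 at -4.65 ± 1.07 (adjusted p = 0.0108), Gata4 at -4.22 ± 0.6 (adjusted p = 0.000996) and Ppara, the fatty acid receptor, at -3.95 ± 0.48 (adjusted p = 0.000471). Clu was higher by 7.6 ± 0.84 (adjusted p = 0.00027). The list medians were -0.44 for synthesis, -0.55 for assembly and -0.58 for regulators, beside -0.08 for all genes and -2.85 for the 9. Of 8 enterocyte markers 4 were lower, and of 8 fibroblast markers tested 5 were higher, in the same comparison.

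Whether the gap between induced and tissue-derived cultures differed between the adult and fetal stages was tested as an interaction. None of the 9 passed, with 5.31% of all genes passing (3.29% positive, 2.01% negative), and 2 had an unadjusted p under 0.05 in limma. These were Apob (-1.99 ± 0.56, adjusted p = 0.059) and Apoe (-2.46 ± 0.88, adjusted p = 0.107). For Apob the gap was -1.72 at the adult and 0.27 at the fetal stage, and for Apoe -0.75 and 1.71. For Fabp1 the 2 gaps, -3.74 and -5.41, differed by 1.67 ± 2.32.

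The order of group means put crypt organoids first for 7 of the 9 genes and iHep cells first for Apoa1 and Apoe. For Apoa1, Apoa4, Apoc3, Mttp and Fabp2 the order among organoids was crypt, iISC, FI and iFIPC, and no neighbouring pair in it passed the test. For Fabp1 it was crypt, FI, iISC and iFIPC, and for Apob crypt, iFIPC, FI and iISC, again with no neighbouring pair passing. The step from the lowest organoid group down to iHep cells or MEFs passed for Apoa1, Apoa4, Apoc2, Apoc3, Mttp, Fabp1 and Fabp2. For Apob the passing step was that from iHep cells down to MEFs.

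For each member the 3 other genes with the most similar course over the 17 samples were found by Pearson's correlation among 14915 detected genes. The points share array sets and groups, so the values are a description. Mttp ran closest to Pdzd3 (r = 0.994), Slc30a10 (0.99) and Prelid2 (0.989), Fabp2 to Fbp1 (0.988), Mfsd6l and Ehhadh (0.987 each), and Apoa4 to Ggt1 (0.986), Nat8f5 and Tkfc (0.981 each). Apoc3 ran with Pla2g12b (0.978), Cyp2d22 (0.973) and Tcf23 (0.97). Apob ran with Dgat2 and Gsta1 (0.958 each) and Gsta2 (0.956), and Apoc2 with H2-K1 (0.943), Gsta1 (0.942) and Gsta2 (0.941). Apoa1 was closest to H2-Q5 (0.966), Spink1 (0.965) and the acyl-CoA synthetase Acsl1 (0.964), Apoe to Nsmaf (0.973), Glis1 (0.962) and Ube2g2 (0.958), and Fabp1 to Timm44 (0.945), Ak4 and Tsfm (0.944 each).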

How the data were processed

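The members and gene lists were chosen with earlier results of these data known. Each deposited array file gives, per the file headers, Agilent Feature Extraction output: the processed signal, an intensity on the linear scale with background subtracted by the authors' software, plus spot means and background medians as intensity. Other deposited columns hold quality flags of 0 or 1. The authors' series matrix, an intensity table with the same median of 59.32 in each array, matched a quantile normalization of the processed intensity and served as an alternative. Per the submitters' processing notes the software was version 9.5.1.1, while per the file headers the organoid arrays were extracted with a later version.

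Spots with an outlier flag (62 to 107 per array) were left out, spots of a probe were averaged, and log2 levels were set to 0 at the 75th percentile of each array. Of 41174 gene probes, 65 lacked a value on some array. Per array, 56.12% to 68.65% of probes were well above background, and no member was saturated. The Apoa1 and Apoe probes have up to 10 spots, with a median SD between spots of 0.054 and 0.041. A gene was read by its brightest probe. A gene entered a test when 1 or both groups had it well above background on all their arrays, and was tested with limma 3.58.1 in R 4.3.3 (1 mean per group, two-sided). Comparisons with MEFs or iHep cells used 17 samples (n = 2 for MEFs), those among organoids the 12 organoid arrays. For a bound, each dim array was given the higher of its own reading and the dimmest reading that counted as well above background there. The procedure was tested on simulated data, where 81% of changes of 2 log2 units were recovered for iHep cells against MEFs and 83% for iISC against crypt organoids. The changed genes were drawn at random, each with its own spread, so these shares do not describe the members. Between iISC and crypt organoids the members' standard errors ran from 0.4 (Apob) to 1.63 (Fabp1). Precision is limited by the few arrays, and an exact permutation test of 3 against 3 cannot go below p = 0.1. Named genes were all members, up to 4 passing members of each pathway list with the largest change and those against the list's direction, of which a part is printed, and the 3 most correlated genes. RefSeq accessions named 24792 probes, symbols 6034 and older symbols 1806, while 8462 stayed unnamed. Probe positions are those of the files (mm9), promoters those of RefSeq (GRCm38.p6), which held 8 of the 9 members. The 16 other settings tried cover background correction, scaling, probe choice, filters, samples in the fit, slide, the replicate block and leaving out each array. Results for a few genes and 1 promoter motif are not reported here.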

Additional observations from a re-analysis of the deposited data

How the results depend on the processing

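Of 41 member calls against MEFs 38 held under every setting in which the gene was still tested, of 29 against iHep cells 25, and of 12 among organoids 2. Requiring signal in all compared groups took Apoa1, Apoa4, Apob, Apoc3 and Fabp1 out of the tests against MEFs. Those calls could not be checked under that setting. Results that turned direction were never called ones. In the list below a count is of members passing unless genes are named, and the cause of a change was not tested.

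Counts that moved by over 1.5 times were as follows. With normexp background correction, 3 members passed for iHep against MEF and 852 genes for crypt against FI. Requiring signal well above background in all compared groups (fewer genes tested) left 2 members for iHep and 4 for each organoid group against MEF, with 4997 genes for crypt and 4640 for iISC against MEF, 292 for iISC against crypt and 710 for iISC against iFIPC. Without a filter, 1 member passed for crypt against FI and for iISC against iFIPC, and 0 for iFIPC against FI and iISC against crypt. With only the groups compared in the fit, 3 members passed for iFIPC against crypt and 0 for iFIPC against FI, iISC against crypt and iISC against iFIPC, with 639 genes for iISC against iFIPC and 492 for iISC against FI. With all 17 samples in the fit, 0 members passed for iFIPC against FI and iISC against crypt, and with the mean over probes 1 passed for origin by stage. Same-numbered organoid arrays did not deviate together (correlations from -0.42 to 0.36), so the numbers are not taken to pair them; with the replicate block 1 member passed for crypt against FI and 0 for iISC against crypt. With slide as a term, 0 members passed for crypt against FI, iFIPC against FI, iISC against crypt and iISC against iFIPC, with 325, 124, 36 and 300 genes, and 8 genes passed for iISC against FI and 67 for origin by stage. Within slide 1, 1641 genes and 2 members passed for iHep against MEF, within slide 3, 95 and 0 for iISC against iFIPC, and within slide 4, 147 and 0 for crypt against FI. On each of these 3 slides 1 group has a single array, assumed to vary like the others, so these counts say little.

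Leaving out each array gave 0 to 1 members and 153 to 670 genes for iISC against crypt (main 1 and 462), 0 to 2 and 976 to 1440 for iFIPC against FI (1 and 1546), 0 to 2 and 761 to 1807 for crypt against FI (2 and 1298), and 0 to 1 and 324 to 1597 for origin by stage (0 and 770). It gave 0 to 3 members for iISC against iFIPC (2), 2 to 7 for iFIPC against crypt (6), and 281 to 849 genes for iISC against FI (779).

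Directions turned for small differences. With quantile normalization and with the authors' matrix, Apoe became 0.03 for crypt against FI and Apob -0.01 for iISC against iHep. Apob there was -0.06 with the percentile over probes above background, and Apoc2 for FI against iHep 0.02 with normexp. With slide as a term, crypt against FI gave Apoc2 -0.31 and Apoe 0.15 (the same within slide 4), iFIPC against FI gave Apob -0.28, iISC against crypt gave Apoe 1.58, origin by stage gave Fabp1 -1.65, and iISC against FI gave Apoa1 -1.48, Apoa4 -3.29, Apoc3 -1.66, Apoe 1.73, Fabp2 -0.7 and Mttp -2.13. With each array left out in turn, the differences that turned ran as follows. For iHep against MEF, Apoe was -0.3 to 1.59. Against iHep cells, Apob was -0.87 to 1.2 for iISC, -0.28 to 1.79 for iFIPC and -0.55 to 1.52 for FI organoids, and Apoc2 -0.84 to 0.67 for iFIPC and -0.62 to 0.9 for FI. For iISC against crypt, Apoc3 was -0.59 to 0.11, and for crypt against FI, Apoe was -0.17 to 0.19. For iFIPC against FI, Apoa1 was -1.1 to 0.66, Apoa4 -2.44 to 0.05, Apob -0.14 to 0.56, Apoc2 -0.52 to 0.28 and Mttp -1.25 to 0.21. For origin by stage, Apoa1 was -1.66 to 0.1, Apoa4 -0.86 to 1.63, Mttp -1.28 to 0.19 and Fabp1 -0.05 to 3.42.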

Other observations

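The iHep arrays carry codes that the labels do not explain, and their levels of factors that act on apolipoprotein genes differed. Foxa1 was at -3.06, -8.12 and -8.15 in iHep 1, 2 and 3, and Foxa2 at -0.93, -7.65 and -8.29. Nr1h4, the bile acid receptor, was at -1.58, -5.92 and -7.25, and Hnf4a at -0.54, -2.58 and 1.57. Over the same arrays the hepatocyte marker Alb was at 6.46, 7.92 and -0.2 and the enterocyte marker Vil1 at 3.84, 4.86 and 6.28. These genes were picked after their values were seen, and each value rests on 1 array.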
